A study of Mus musculus with 8 samples.

Results

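In all, 40 genes of the lysosome were described: 18 genes for hydrolases and other proteins of the lysosome's interior, 8 for proteins of its membrane, 13 for subunits of the V-ATPase (symbols starting Atp6) and Tfeb, which stands in no block. The block of 18, called luminal below, also holds Nagpa, which encodes an enzyme of the Golgi. The genes were taken by name from a deposited table of read counts, in which all 40 were found among 24369 gene symbols. The table holds 8 libraries of dendritic cells sorted from MC38-EGFP tumours of wild-type mice, 2 libraries for each of 4 groups: EGFP-positive cDC1, EGFP-negative cDC1, EGFP-positive cDC2 and EGFP-negative cDC2. MC38 cells derive from a mouse colon tumour, and here they carry the fluorescent protein EGFP. The cDC1 and cDC2 are the main subsets of conventional dendritic cells, and each was split by its EGFP signal. All libraries thus share the tumour line and the mouse genotype. The series title concerns the drug sitagliptin, but no label of these 8 libraries names a drug. The titles share a code across the groups within each replicate number, but the labels do not say what it stands for. Whether the replicates are different mice is thus not given, so the p-values measure how far these libraries spread, which may be technical. Their cell type field names colon cancer rather than the sorted cells, while the sources used here do not state the antibodies of the sort, the age of the mice or the cell numbers.

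Lysosomes are acidic organelles in which hydrolases break down proteins, lipids and glycans taken up from outside or delivered by autophagy. The V-ATPase pumps protons into them. Its V1 sector hydrolyses ATP in the cytosol and its V0 sector carries the protons through the membrane. In dendritic cells the same compartments cut antigens for presentation, and how acidic and how rich in proteases they are is known to set how fast an antigen is destroyed. TFEB is a transcription factor that binds E-box motifs in the promoters of many lysosomal genes and raises their transcription.

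The library totals ran from 17869441 to 22195681 counts, and 8208 to 11922 genes had at least 1 count. Rn45s, a ribosomal RNA precursor, took 19.4 to 35.6% of the counts. The EGFP-positive cDC1 libraries stood apart: they had the fewest detected genes (8553 and 8208, against 9602 to 11922 elsewhere), and their replicate correlation across genes on the log2(CPM + 1) scale was 0.629, against 0.850 to 0.898 in the other groups. Of the genes with at least 100 counts in either EGFP-positive cDC1 replicate, 23.3% had 0 in the other one, against 7.49, 2.51 and 2.81% in EGFP-negative cDC1, EGFP-positive cDC2 and EGFP-negative cDC2. The counts of genes, the block sums and the fold changes of called genes are therefore given also without them, where a value can be had.

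The subset labels were checked against marker genes. The summed level of 11 cDC1 markers was 3392 to 5739 CPM in cDC1 libraries and 183 to 541 CPM in cDC2 libraries. Here CPM is the usual count of a gene relative to its library's total, after TMM scaling. The 11 markers shared by conventional dendritic cells summed to 14354 to 21578 CPM in cDC1 and 3434 to 9335 CPM in cDC2, where Zbtb46, Flt3, Dpp4 and Kmo each had 0 counts in 1 library. The 10 cDC2 markers separated the gates less, at 220 to 934 CPM in cDC1 and 986 to 1290 CPM in cDC2. The 22 macrophage and monocyte markers summed to 488 and 14347 CPM in EGFP-positive cDC1 and 2387 and 3733 CPM in EGFP-negative cDC1, against 54424 and 30601 CPM in EGFP-positive cDC2 and 62583 and 52327 CPM in EGFP-negative cDC2. Mertk had 0 counts in all 4 cDC1 libraries, and every macrophage marker had counts in all 4 cDC2 libraries. Macrophages are known to be rich in lysosomes. The part of these marker levels in the subset differences below was not tested. In these sorted bulk samples, fewer cells of a type and less RNA per cell cannot be told apart.

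**Figure D1:**
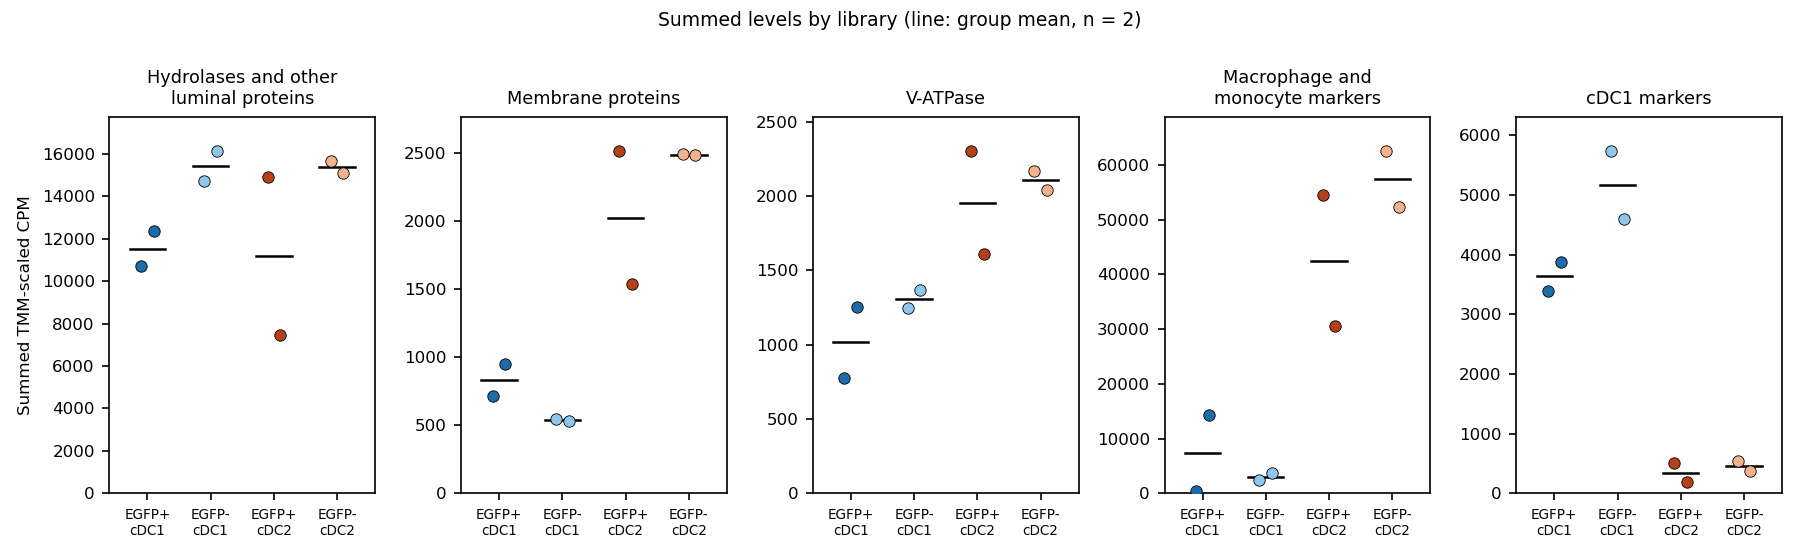
Summed TMM-scaled CPM of each block of lysosomal genes and of the macrophage and cDC1 marker lists, with 1 point per library and a line at the mean of each group of 2. The membrane block sums to 532 to 950 CPM in cDC1 libraries and 1536 to 2519 CPM in cDC2 libraries, while the sums of the hydrolase block overlap between the subsets.

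Summed over all 40 genes the subsets did not differ beyond the spread, while the sums of the membrane and V-ATPase blocks were lower in cDC1. All 40 genes summed to 15333 ± 2521 CPM in cDC1 and 17570 ± 4665 CPM in cDC2 (SD, n = 4 libraries each). The hydrolases and other luminal proteins summed to 13485 ± 2416 CPM in cDC1 and 13274 ± 3900 CPM in cDC2, and those ranges overlapped. The membrane proteins summed to 686 ± 196 CPM in cDC1 and 2260 ± 482 CPM in cDC2, and the V-ATPase genes to 1162 ± 263 CPM in cDC1 and 2030 ± 301 CPM in cDC2. For both of these blocks every cDC1 library lay below every cDC2 library. In the EGFP-negative fraction, which holds none of the EGFP-positive cDC1 libraries, the luminal sum was 15433 ± 1011 CPM in cDC1 and 15369 ± 403 CPM in cDC2 (SD, n = 2 each). There the membrane sum was 538 ± 7.95 CPM in cDC1 and 2491 ± 8.27 CPM in cDC2, and the V-ATPase sum 1308 ± 88.5 CPM in cDC1 and 2105 ± 89.1 CPM in cDC2. All 40 genes summed there to 17280 ± 1091 CPM in cDC1 and 19974 ± 504 CPM in cDC2, and these ranges did not overlap.

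Of the 40 genes, 39 entered the test, and 3 of them differed between cDC1 and cDC2 over both EGFP fractions at an adjusted p under 0.05 (edgeR's quasi-likelihood test, Benjamini-Hochberg adjustment over 11394 genes). Naaa and Ppt1, both luminal hydrolases, were higher in cDC1, and Lamp1 was lower. The same test called 150 of all genes, 1.32%. The log2 fold change of cDC1 over cDC2 was negative in 33 of the 39 lysosomal genes, and its median was −1.03, beside −0.28 over all genes tested. By block the median was −2.05 for the membrane proteins, −0.95 for the luminal proteins and −0.89 for the V-ATPase. Every cDC1 library lay below every cDC2 library for 17 of the 39 genes, beside 8.56% of all genes tested, and above for 3 of the 39, beside 3.96%. The 17 are 6 of the 8 membrane proteins, 5 of the 12 tested V-ATPase subunits, 5 of the 18 luminal proteins and Tfeb.

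**Figure D2:**
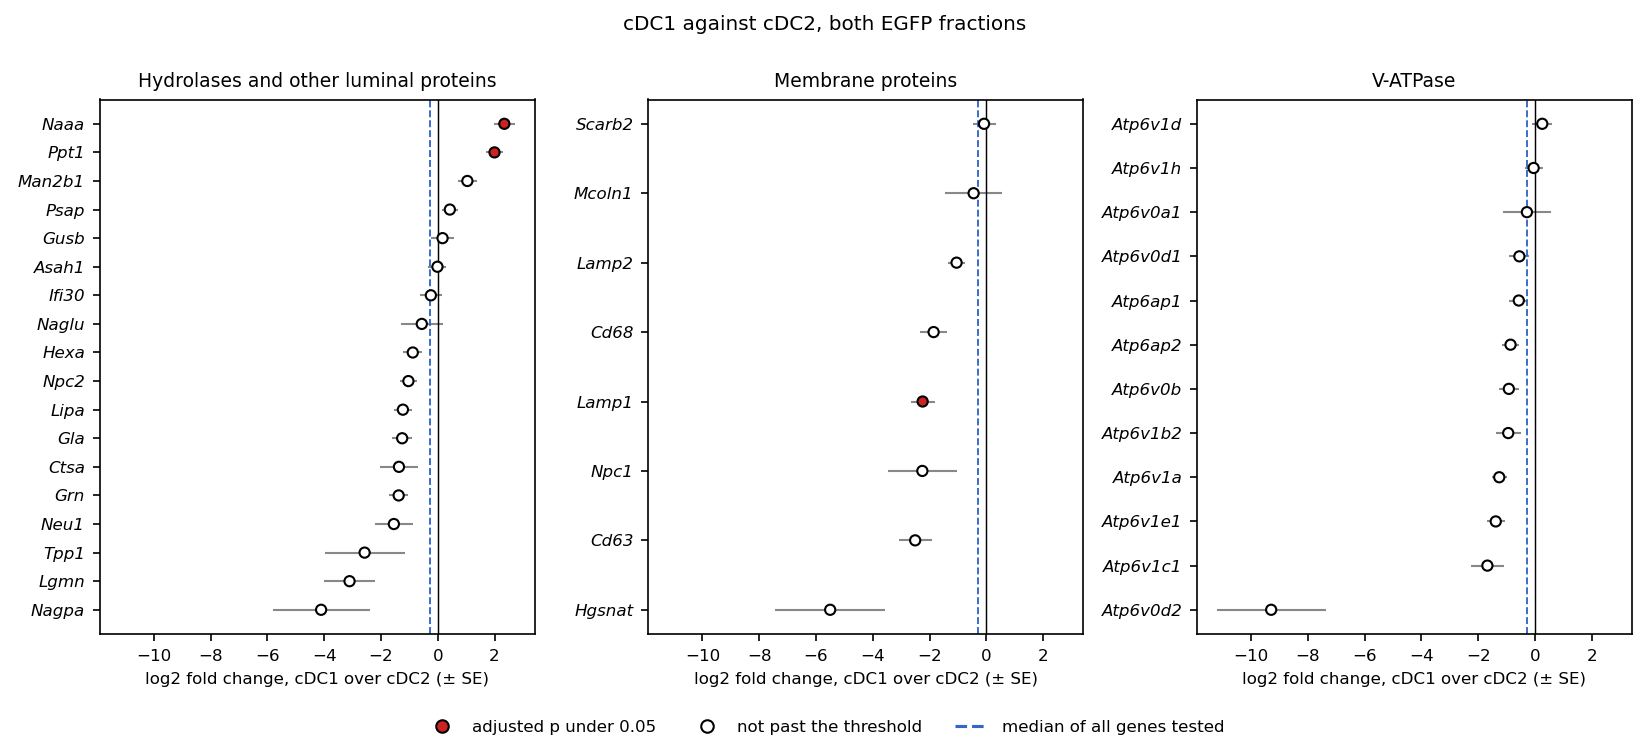
Log2 fold change of cDC1 over cDC2 with its standard error for each tested gene of the 3 blocks, over 4 libraries a side. Filled points passed the adjusted p of 0.05, and the dashed line marks the median of all genes tested, −0.28. All 8 membrane proteins lie left of 0, and the luminal block spreads to both sides.

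The count of called genes rested on single libraries. Without both EGFP-positive cDC1 libraries, which leaves the subset difference to the EGFP-negative cells, 11 of 39 genes passed, beside 3.55% of all genes: Naaa and Ppt1 were higher in cDC1, and Lamp1, Cd63, Cd68, Hgsnat, Lgmn, Ctsa, Grn, Neu1 and Atp6v1a were lower. In that fit the log2 fold changes were 2.91 for Naaa, 2.19 for Ppt1 and −3.15 for Lamp1, with adjusted p-values of 0.0201, 0.0363 and 0.00854 (edgeR). The medians were −1.29 for the luminal proteins, −1.87 for the membrane proteins and −0.78 for the V-ATPase, beside −0.06 over all genes. The subsets then did not overlap for 25 of the 39 genes (64.1%), 21 of them lower in cDC1, beside 33.5% of all genes. No lysosomal gene passed without EGFP-negative cDC1 replicate 1, without EGFP-negative cDC1 replicate 2 or without EGFP-negative cDC2 replicate 2. In these fits 0.557, 0.539 and 0.403% of all genes passed, in the same order. Only Atp6v0d2 passed without EGFP-negative cDC2 replicate 1, beside 0.547% of all genes. DESeq2 on all 8 libraries called 18, of which 2 were higher and 16 lower in cDC1, beside 10.2% of all genes.

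Among the luminal proteins, Naaa (chr5:92257659-92278170, minus strand in GENCODE M21 on GRCm38) encodes N-acylethanolamine acid amidase, which hydrolyses lipid amides such as palmitoylethanolamide. It had 1543 and 1165 CPM in EGFP-positive cDC1 and 3774 and 3071 CPM in EGFP-negative cDC1, against 546 and 240 CPM in EGFP-positive cDC2 and 517 and 395 CPM in EGFP-negative cDC2. All 4 cDC1 libraries were above all 4 cDC2 libraries, and the mean was 2388 ± 1237 CPM in cDC1 and 425 ± 140 CPM in cDC2 (SD, n = 4 each). The log2 fold change was 2.35 ± 0.37 (SE), with an adjusted p of 0.0190 in edgeR's quasi-likelihood test. Within the EGFP-negative fraction it was 2.91 ± 0.45 (adjusted p = 0.0581, edgeR) and within the EGFP-positive fraction 1.78 ± 0.43 (adjusted p = 0.134, edgeR).

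Ppt1 (chr4:122836242-122859175, plus strand) encodes palmitoyl-protein thioesterase, which strips fatty acyl groups from proteins under breakdown. It had 452 and 418 CPM in EGFP-positive cDC1 and 806 and 663 CPM in EGFP-negative cDC1, against 171 and 77.8 CPM in EGFP-positive cDC2 and 168 and 153 CPM in EGFP-negative cDC2. The subsets again did not overlap, and the log2 fold change was 2.0 ± 0.30 (adjusted p = 0.0148, edgeR's quasi-likelihood test). Of the merged exons of Ppt1, 129 of 3674 bases overlap exons of Cap1 on the opposite strand, and Cap1 itself had 28.7 ± 14.7 CPM in cDC1 and 22.7 ± 9.25 CPM in cDC2. Whether reads were counted by strand is not given in the sources used here, so reads from the overlap cannot be told apart. Hexa, Grn, Ifi30, Ctsa, Lamp1, Npc1, Atp6v1e1, Atp6v1h and Atp6v0b also overlap exons on the opposite strand, by 32 to 819 bases.

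The promoters of the 3 genes called over both fractions are shown here, since they differ in the letters TCACGTG, a form of the E-box. Each window runs from 250 bases before to 50 bases after the gene's start, taken from RefSeq on GRCm38.p6 and printed 5′ to 3′ on the gene's strand. Capitals mark the letters TCACGTG or their reverse complement CACGTGA. Lamp1 lies at chr8:13158911-13159210 on the plus strand, Naaa at chr5:92278132-92278431 on the minus strand and Ppt1 at chr4:122835977-122836276 on the plus strand.
Lamp1 promoter: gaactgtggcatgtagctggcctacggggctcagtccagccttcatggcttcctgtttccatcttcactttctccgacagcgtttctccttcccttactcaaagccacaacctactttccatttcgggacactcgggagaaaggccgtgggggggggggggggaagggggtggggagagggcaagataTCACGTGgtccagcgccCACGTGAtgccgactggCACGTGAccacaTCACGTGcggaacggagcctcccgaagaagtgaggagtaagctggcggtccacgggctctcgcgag
Naaa promoter: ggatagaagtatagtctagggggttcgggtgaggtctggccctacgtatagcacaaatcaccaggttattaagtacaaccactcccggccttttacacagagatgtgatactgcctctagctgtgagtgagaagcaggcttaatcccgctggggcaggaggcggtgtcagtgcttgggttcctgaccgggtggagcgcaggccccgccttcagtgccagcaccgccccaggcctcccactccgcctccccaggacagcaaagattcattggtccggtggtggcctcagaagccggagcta
Ppt1 promoter: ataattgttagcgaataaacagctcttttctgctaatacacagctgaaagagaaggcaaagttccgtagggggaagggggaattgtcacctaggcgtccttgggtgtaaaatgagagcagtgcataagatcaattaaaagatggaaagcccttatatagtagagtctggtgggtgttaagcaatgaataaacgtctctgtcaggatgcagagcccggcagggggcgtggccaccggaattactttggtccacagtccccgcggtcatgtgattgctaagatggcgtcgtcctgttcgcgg
The Lamp1 window holds 4 matches, whose first bases lie 62, 45, 28 and 16 bases before the start. The windows of Naaa and Ppt1 have no capitals: these letters are not in them. Other forms of the E-box were not marked, so a window without capitals may still hold one. The log2 fold change over both fractions was negative in 11 of 11 tested lysosomal genes with these letters and in 22 of 28 others. Over all genes tested it was negative in 58.9%, and the other genes with these letters were not counted apart. Some of the 28 had no window. Whether the letters bear on the fold changes was not tested.

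Psap was the most abundant of the genes per kilobase of merged exon in both subsets, at 2295 ± 556 CPM per kb in cDC1 and 1690 ± 493 CPM per kb in cDC2. It encodes prosaposin, the precursor of the saposins that help enzymes reach sphingolipids. Its level was 5562 and 4781 CPM in EGFP-positive cDC1 and 6532 and 8317 CPM in EGFP-negative cDC1, against 5549 and 2664 CPM in EGFP-positive cDC2 and 4856 and 5481 CPM in EGFP-negative cDC2. The ranges overlapped, and the log2 fold change was 0.43 ± 0.28 (adjusted p = 0.587, edgeR). As a share of the summed CPM of all 40 genes, Psap made up 32.9 to 46.1% in cDC1 libraries and 23.9 to 28.1% in cDC2 libraries. Without Psap the other genes summed to 9976 and 9734 CPM in EGFP-negative cDC1, against 15474 and 14138 CPM in EGFP-negative cDC2. In the EGFP-positive fraction they summed to 6659 and 9770 CPM in cDC1, against 14194 and 7925 CPM in cDC2, where the subsets overlapped.

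Ifi30, which encodes the thiol reductase GILT that opens disulfide bonds of antigens, ranked second per kilobase in both subsets. It had 750.0 and 1691 CPM in EGFP-positive cDC1 and 865 and 1271 CPM in EGFP-negative cDC1, against 1423 and 633 CPM in EGFP-positive cDC2 and 1954 and 1587 CPM in EGFP-negative cDC2. No difference beyond the spread was seen (log2 fold change −0.24 ± 0.39, adjusted p = 0.879, edgeR). Rank 3 per kilobase went to different genes. In cDC1 it was Naaa, at 642 ± 333 CPM per kb, against 114 ± 37.5 CPM per kb and rank 12 in cDC2. In cDC2 it was Lgmn, which encodes the asparaginyl endopeptidase legumain, at 116 ± 151 CPM per kb and rank 8 in cDC1, against 785 ± 295 CPM per kb in cDC2.

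Lgmn, singled out after its values were seen, had 87.8 and 796 CPM in EGFP-positive cDC1 and 81.8 and 111 CPM in EGFP-negative cDC1, against 2032 and 806 CPM in EGFP-positive cDC2 and 2242 and 2210 CPM in EGFP-negative cDC2. One cDC1 library, EGFP-positive replicate 2, nearly reached the lowest cDC2 library. The same library had the highest macrophage marker sum among cDC1, 14347 CPM, and its part in this level was not tested. The log2 fold change of Lgmn was −3.10 ± 0.90 (adjusted p = 0.194, edgeR).

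Grn encodes progranulin, a secreted and lysosomal glycoprotein cut into granulins. It had 426 and 674 CPM in EGFP-positive cDC1 and 505 and 407 CPM in EGFP-negative cDC1, against 1279 and 731 CPM in EGFP-positive cDC2 and 1930.3 and 1427 CPM in EGFP-negative cDC2. The subsets did not overlap, yet the test over both fractions was not passed (log2 fold change −1.37 ± 0.33, adjusted p = 0.0975, edgeR). Besides Naaa, Ppt1, Lgmn and Grn, the luminal genes with no overlap were Npc2, Lipa and Tpp1, lower in all cDC1 libraries, and Man2b1, higher in all of them (log2 fold change 1.04 ± 0.33, adjusted p = 0.207, edgeR). The remaining luminal genes, Gla, Hexa, Neu1, Gusb, Asah1, Naglu, Nagpa and Ctsa, overlapped between the subsets.

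**Figure D3:**
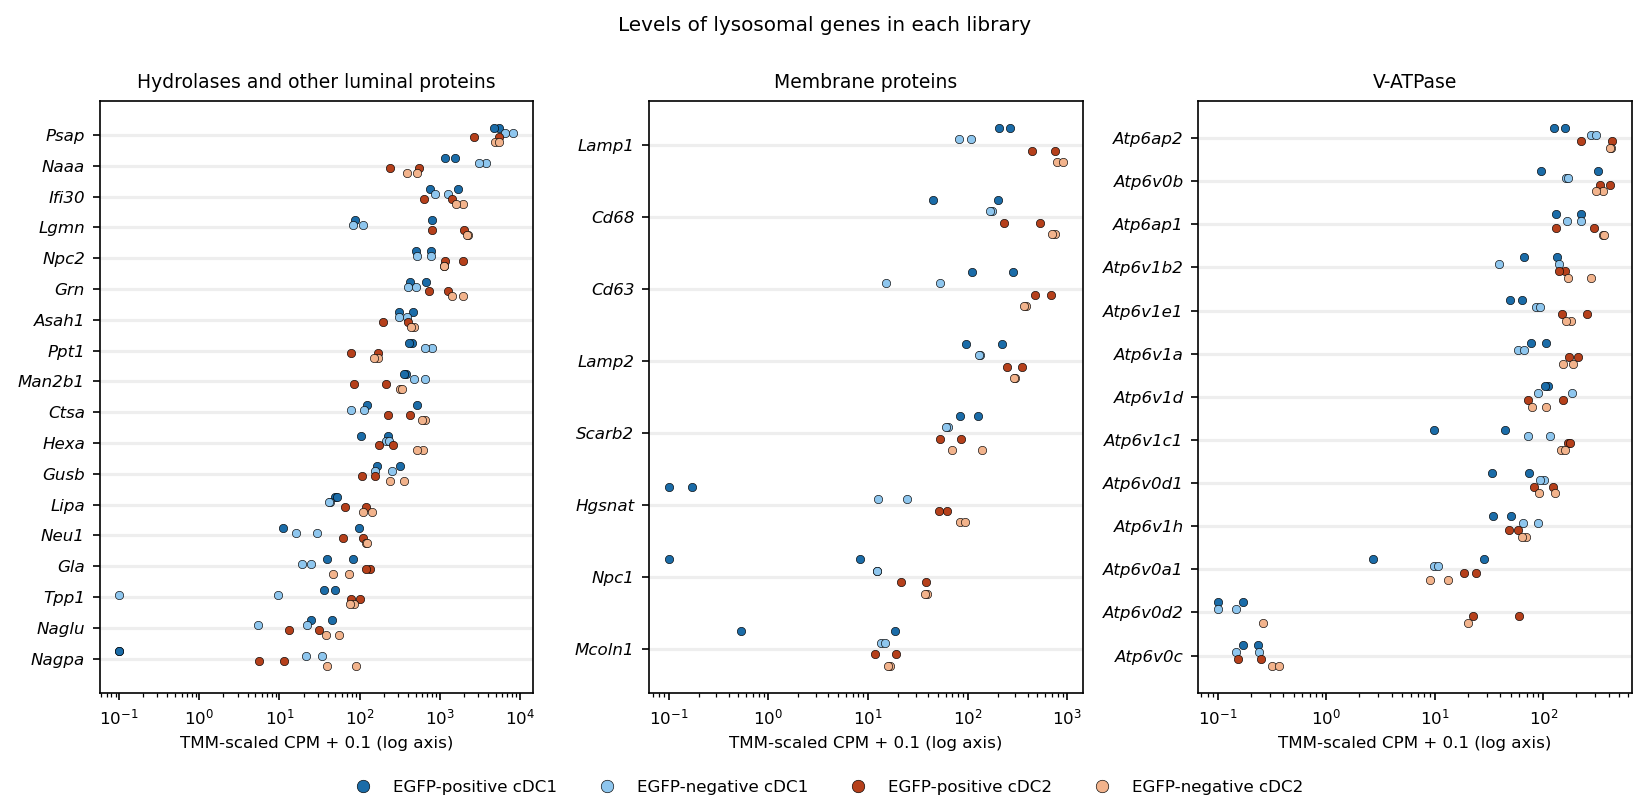
TMM-scaled CPM plus 0.1 on a log axis for each gene of the 3 blocks, with 1 point per library and the 4 groups in rows under each other. Psap stands at the top of the luminal block at 2664 to 8317 CPM, Naaa and Ppt1 are higher in the blue cDC1 points, and Lamp1, Cd68 and Cd63 are lower there.

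Among the membrane proteins, Lamp1 (chr8:13159161-13175338, plus strand) encodes a heavily glycosylated protein that lines the lysosomal membrane. It had 206 and 265 CPM in EGFP-positive cDC1 and 82.0 and 108 CPM in EGFP-negative cDC1, against 747 and 444 CPM in EGFP-positive cDC2 and 786 and 901 CPM in EGFP-negative cDC2. All cDC1 libraries were below all cDC2 libraries, and the mean was 165 ± 85.4 CPM in cDC1 and 720 ± 195 CPM in cDC2 (SD, n = 4 each). The log2 fold change was −2.25 ± 0.42, with an adjusted p of 0.0381 (edgeR's quasi-likelihood test). With a filter of at least 10 CPM in 2 libraries Lamp1 was not called over both fractions (adjusted p = 0.0503, edgeR), nor was it without either EGFP-negative cDC1 library, either EGFP-negative cDC2 library or EGFP-positive cDC2 replicate 1. Its adjusted p over all alternatives ran from 0.000186 with DESeq2 to 0.164 without EGFP-negative cDC1 replicate 2. Within the EGFP-negative fraction Lamp1 was the one lysosomal gene called, at −3.15 ± 0.38 (adjusted p = 0.0290, edgeR), beside 0.360% of all genes. That call was lost when any 1 of the 4 EGFP-negative libraries was left out. With the replicate numbers as a block in the model, Lamp1 was called neither there nor over both fractions. Within the EGFP-positive fraction its log2 fold change was −1.34 ± 0.35 (adjusted p = 0.153, edgeR). Its exons overlap 249 of 2675 bases with Grtp1 on the opposite strand, and Grtp1 had at most 12.6 CPM in any cDC1 library and 3.76 CPM in any cDC2 library.

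Cd68, the macrosialin of macrophage endosomes and lysosomes, had 44.9 and 203 CPM in EGFP-positive cDC1 and 173 and 167 CPM in EGFP-negative cDC1, against 533 and 230 CPM in EGFP-positive cDC2 and 749 and 709 CPM in EGFP-negative cDC2. Cd63, a tetraspanin of late endosomes and exosomes, had 286 and 110 CPM in EGFP-positive cDC1 and 52.6 and 14.9 CPM in EGFP-negative cDC1, against 692 and 468 CPM in EGFP-positive cDC2 and 383 and 365 CPM in EGFP-negative cDC2. Neither gene overlapped between the subsets. Their log2 fold changes over both fractions were −1.86 ± 0.47 for Cd68 and −2.51 ± 0.58 for Cd63, with adjusted p-values of 0.107 and 0.0804 (edgeR).

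Hgsnat (chr8:25944453-25976753, minus strand) encodes the enzyme in the lysosomal membrane that acetylates heparan sulfate for its breakdown. It had 0 and 0.07 CPM in EGFP-positive cDC1 and 12.6 and 24.5 CPM in EGFP-negative cDC1, against 61.8 and 51.0 CPM in EGFP-positive cDC2 and 83.0 and 92.9 CPM in EGFP-negative cDC2. The EGFP-positive cDC1 libraries held 1 count between them, against 2217 counts in EGFP-positive cDC2, a ratio 2087-fold lower with a 95% counting interval of 375 to 82449. This was the one lysosomal gene called within the EGFP-positive fraction (fitted log2 fold change −10.65, adjusted p = 0.0284, edgeR), beside 0.228% of all genes. The call rests on the 2 libraries with the fewest detected genes, and it was lost when any 1 cDC2 library was left out. It was also lost with the replicate numbers as a block in the model and in a fit on only the libraries compared. Over both fractions Hgsnat did not pass (log2 fold change −5.50 ± 1.93, adjusted p = 0.277, edgeR), although the subsets did not overlap.

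Mcoln1 encodes TRPML1, the cation channel that lets calcium out of the lysosome. It had 0.44 and 18.5 CPM in EGFP-positive cDC1 and 13.3 and 14.8 CPM in EGFP-negative cDC1, against 11.6 and 19.1 CPM in EGFP-positive cDC2 and 16.5 and 15.7 CPM in EGFP-negative cDC2. Apart from the first EGFP-positive cDC1 library the values lay close together, and the log2 fold change was −0.45 ± 1.01 (adjusted p = 0.924, edgeR). Lamp2, a close relative of Lamp1, and Npc1, the cholesterol transporter, were lower in every cDC1 library, with log2 fold changes of −1.05 for Lamp2 and −2.26 for Npc1. Scarb2, the carrier of glucocerebrosidase, overlapped between the subsets (log2 fold change −0.08, adjusted p = 0.975, edgeR).

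The V-ATPase genes were mostly lower in cDC1, without any that passed the test. Of 12 tested subunits 11 had a negative log2 fold change, beside 58.9% of all genes tested, and 6 of the 12 were lower at an unadjusted p under 0.05, beside 8.14% of all genes. None had an adjusted p under 0.05 (edgeR). DESeq2, which called 10.2% of all genes, called Atp6v1a, Atp6v1c1, Atp6v1e1 and Atp6v0d2, all lower in cDC1. The 3 most abundant subunits, the accessory proteins Atp6ap2 and Atp6ap1 and the proton-carrying ring subunit Atp6v0b, had log2 fold changes of −0.92 to −0.57.

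Atp6ap2 had 124 and 158 CPM in EGFP-positive cDC1 and 277 and 307 CPM in EGFP-negative cDC1, against 432 and 224 CPM in EGFP-positive cDC2 and 422 and 409 CPM in EGFP-negative cDC2. Atp6ap1 had 131 and 220.5 CPM in EGFP-positive cDC1 and 166 and 225 CPM in EGFP-negative cDC1, against 295 and 131 CPM in EGFP-positive cDC2 and 355 and 359 CPM in EGFP-negative cDC2. Atp6v0b had 95.8 and 318 CPM in EGFP-positive cDC1 and 163 and 168 CPM in EGFP-negative cDC1, against 415 and 331 CPM in EGFP-positive cDC2 and 358 and 304 CPM in EGFP-negative cDC2. All 3 overlapped between the subsets by at least 1 library. Their log2 fold changes were −0.86 for Atp6ap2, −0.57 for Atp6ap1 and −0.92 for Atp6v0b.

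In the V1 sector, Atp6v1a encodes the subunit that binds and splits ATP. It had 105 and 76.6 CPM in EGFP-positive cDC1 and 57.9 and 66.9 CPM in EGFP-negative cDC1, against 211 and 173 CPM in EGFP-positive cDC2 and 151 and 189 CPM in EGFP-negative cDC2. Atp6v1e1, of the stalk that holds the catalytic head in place, had 49.3 and 62.8 CPM in EGFP-positive cDC1 and 86.0 and 93.2 CPM in EGFP-negative cDC1, against 252 and 147 CPM in EGFP-positive cDC2 and 181 and 162 CPM in EGFP-negative cDC2. Neither overlapped between the subsets. The log2 fold change of Atp6v1a was −1.26 ± 0.26 (adjusted p = 0.0577, edgeR) and that of Atp6v1e1 −1.39 ± 0.31 (adjusted p = 0.0764, edgeR). Atp6v1h, a regulatory subunit of the same sector, had 49.8 and 34.2 CPM in EGFP-positive cDC1 and 89.2 and 65.4 CPM in EGFP-negative cDC1, against 57.9 and 48.0 CPM in EGFP-positive cDC2 and 68.9 and 62.8 CPM in EGFP-negative cDC2. Its means of 59.7 ± 23.5 CPM in cDC1 and 59.4 ± 8.81 CPM in cDC2 were alike, and the log2 fold change was −0.05 ± 0.32.

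In the V0 sector, the d subunit couples the turning stalk to the proton ring and comes in 2 isoforms. Atp6v0d1, the widely expressed one, had 33.3 and 73.1 CPM in EGFP-positive cDC1 and 102 and 92.3 CPM in EGFP-negative cDC1, against 123 and 81.4 CPM in EGFP-positive cDC2 and 128 and 90.9 CPM in EGFP-negative cDC2. Atp6v0d2, known from osteoclasts and macrophages, had 0 and 0.07 CPM in EGFP-positive cDC1 and 0.05 and 0 CPM in EGFP-negative cDC1, against 22.4 and 59.7 CPM in EGFP-positive cDC2 and 0.16 and 19.9 CPM in EGFP-negative cDC2. The first isoform overlapped between the subsets and the second did not, although EGFP-negative cDC2 replicate 1 was nearly as low as cDC1. The 4 cDC1 libraries held 2 counts of Atp6v0d2, against 2086 in cDC2, a ratio 1037-fold lower with a 95% counting interval of 287 to 8562. The adjusted p over both fractions was 0.0552 (edgeR), and the gene reached the low-count filter only through cDC2 libraries. Atp6v0c, the main subunit of the proton ring, had at most 0.27 CPM in any library and was not tested. Near-identical processed copies of this gene are annotated in GENCODE M21 (Atp6v0c-ps1 and Atp6v0c-ps2), so its count is uncertain.

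Tfeb was low throughout, at 0 and 0.42 CPM in EGFP-positive cDC1 and 0.61 and 0.79 CPM in EGFP-negative cDC1, against 7.39 and 2.18 CPM in EGFP-positive cDC2 and 11.7 and 6.81 CPM in EGFP-negative cDC2. The subsets did not overlap, and the log2 fold change was −4.09 ± 1.80 (adjusted p = 0.359, edgeR).

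The subset difference mostly had the same sign in both EGFP fractions, which share no library. Of the 39 genes, 28 were lower in cDC1 in both fractions, 4 were higher in both and 7 had opposite signs: Asah1, Gusb, Ifi30, Naglu, Scarb2, Atp6v1d and Atp6v1h. The same sign was thus seen in 82.1% of them, beside 56.6% of all genes tested, and the lower sign in both fractions in 71.8%, beside 33.2%. These shares rest in part on the EGFP-positive cDC1 libraries and have no value without them. In the EGFP-negative fraction alone 33 of the 39 genes had a negative log2 fold change (84.6%), beside 51.1% of all genes.

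**Figure D4:**
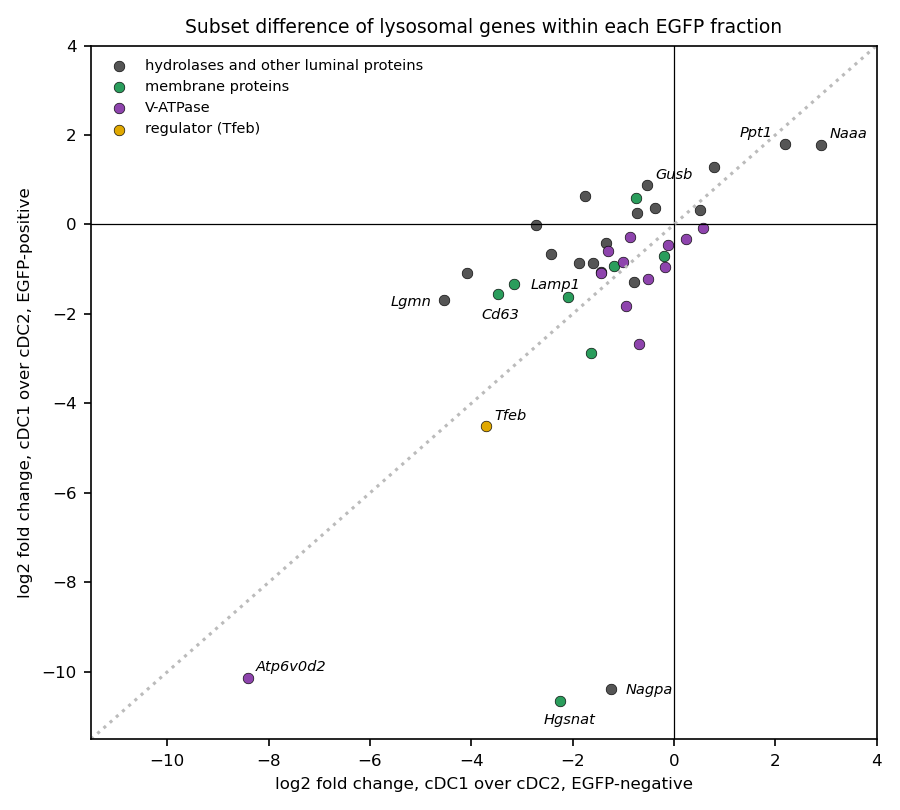
Log2 fold change of cDC1 over cDC2 in EGFP-negative libraries (x axis) and in EGFP-positive libraries (y axis) for the 39 tested genes, coloured by block. The dotted line marks equal values. Most points lie at the lower left, Naaa and Ppt1 stand at the upper right, and Hgsnat and Nagpa, with 1 and 0 counts in the EGFP-positive cDC1 libraries, lie far below the line.

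No lysosomal gene passed the test between EGFP-positive and EGFP-negative cells, whether over both subsets, within cDC1 or within cDC2, and none passed the test of whether the EGFP difference differs between the subsets (edgeR's quasi-likelihood test, adjusted p under 0.05). Each of these 4 comparisons called 0 of 11394 genes, 0%. At an unadjusted p under 0.05, 6 of the 39 genes (2 higher and 4 lower in EGFP-positive cells) were found over both subsets, 10 (5 higher and 5 lower) within cDC1, 4 (all lower) within cDC2 and 4 (2 of each sign) for the difference of differences. The shares of all genes at that p were 5.22, 12.7, 2.63 and 10.4% in the same order. DESeq2 called 2, 5, 0 and 3 of the 39 in these 4 comparisons, beside 1.61, 11.6, 0.965 and 6.27% of all genes. All 4 EGFP-positive libraries lay below all 4 EGFP-negative libraries for Nagpa and Atp6v1h, beside 2.0% of all genes, and above for none of the 39, beside 0.965%. Without both EGFP-positive cDC1 libraries the fractions did not overlap for 10 of the 39 (25.6%), beside 22.2% of all genes. In that setting EGFP-positive cDC2 libraries alone were compared with EGFP-negative libraries of both subsets.

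Nagpa encodes the enzyme of the Golgi that uncovers the mannose 6-phosphate tag by which hydrolases are sent to the lysosome. It had 0 and 0 CPM in EGFP-positive cDC1 and 5.52 and 11.2 CPM in EGFP-positive cDC2, against 33.7 and 21.3 CPM in EGFP-negative cDC1 and 90.5 and 38.9 CPM in EGFP-negative cDC2. Against a floor of 3 counts over the group, it was at least 340.1-fold lower in EGFP-positive than in EGFP-negative cDC1 (adjusted p = 0.0793, edgeR). This bound covers counting error only and rests on the EGFP-positive cDC1 libraries, which had the fewest detected genes. Of the genes with at least 100 counts in either of these replicates, 23.3% had 0 in the other one. Within cDC2 the log2 fold change of EGFP-positive over EGFP-negative was −2.95 ± 0.82 (unadjusted p = 0.0102, adjusted p = 1, edgeR).

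Gla, the alpha-galactosidase that trims galactose from glycolipids, ran the other way, at 38.9 and 82.4 CPM in EGFP-positive cDC1 and 134 and 119 CPM in EGFP-positive cDC2, against 19.3 and 24.7 CPM in EGFP-negative cDC1 and 46.3 and 73.7 CPM in EGFP-negative cDC2. Within each subset both EGFP-positive libraries were above both EGFP-negative ones. The log2 fold change over both subsets was 1.27 ± 0.35 (adjusted p = 0.951, edgeR). Cd63, whose values stand above, was the other gene higher in EGFP-positive cells at an unadjusted p under 0.05, with a log2 fold change of 1.59 ± 0.57 and an adjusted p of 0.951 (edgeR). Within cDC2 the log2 fold change was 1.07 ± 0.48 for Gla and 0.63 ± 0.65 for Cd63 (adjusted p = 1 for each, edgeR). The summed stromal markers were 811 CPM in EGFP-positive cDC1 replicate 1 and 170 CPM in EGFP-positive cDC2 replicate 2, with 3.09 and 0.26 CPM in the other EGFP-positive libraries of cDC1 and cDC2, against 2.23 to 10.7 CPM in EGFP-negative libraries. Their part in these values was not tested. Among the pump's subunits, Atp6ap2 (−0.70 ± 0.30) and Atp6v1h (−0.60 ± 0.32) had the smallest unadjusted p-values, 0.0421 and 0.0926, with adjusted p-values of 0.951 and 1 (edgeR). Within cDC2 their log2 fold changes were −0.34 ± 0.37 and −0.31 ± 0.40 (adjusted p = 1 for each, edgeR).

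Other genes of the same pathway were counted in lists of lysosomal genes outside the 40. Of 27 other luminal hydrolases, Plbd1 and Gm2a were higher and Hyal2 was lower in cDC1 over both fractions. Plbd1, a phospholipase B-like protein, had 1865 ± 764 CPM in cDC1 and 339 ± 164 CPM in cDC2 (log2 fold change 2.48 ± 0.29, adjusted p = 0.00384, edgeR). Gm2a, the activator that presents GM2 ganglioside to hexosaminidase, had 1104 ± 231 CPM in cDC1 and 225 ± 92.3 CPM in cDC2 (log2 fold change 2.35 ± 0.34, adjusted p = 0.0114, edgeR). Hyal2, a hyaluronidase, had at most 0.05 CPM in any cDC1 library and 5.92 to 20.5 CPM in cDC2 (adjusted p = 0.0427, edgeR), and it reached the low-count filter only through cDC2 libraries. The median of that list was −1.23. None of 22 other lysosomal membrane proteins, 9 other V-ATPase subunits and 27 genes of lysosomal regulation and sorting passed, with medians of −0.75, −0.09 and −0.59. None of these genes passed in the EGFP comparisons (edgeR, adjusted p under 0.05). By summed CPM, none of these 4 lists lay lower in all cDC1 libraries. The other luminal hydrolases summed to 3853 ± 903 CPM in cDC1 and 1838 ± 527 CPM in cDC2 (SD, n = 4 each), with every cDC1 library above every cDC2 library. The other membrane proteins summed to 1663 ± 553 CPM in cDC1 and 1525 ± 337 CPM in cDC2, the other V-ATPase subunits to 909 ± 198 CPM in cDC1 and 895 ± 110 CPM in cDC2, and the regulation and sorting genes to 1484 ± 188 CPM in cDC1 and 1564 ± 123 CPM in cDC2. The ranges of these 3 lists overlapped between the subsets.

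The TCACGTG sites of the other genes that hold these letters are shown because they occur in all 3 blocks. Promoter windows were found for 33 of the 40 genes. The letters TCACGTG, read on both strands, stood in the window of 11 of the 33 (33.3%), beside 4.29% of all 27025 genes with a window and 7.12% of the 8735 tested genes with one. By block these were 6 of 17 luminal genes, 2 of 6 membrane proteins and 3 of 9 V-ATPase subunits, and the windows of Tfeb had none. The longer palindrome TCACGTGA, which contains the shorter letters, stood in 6 of the 33 (18.2%), beside 1.12% of all genes and 2.29% of the tested genes. The longer CLEAR consensus of TFEB, searched as 1 palindrome of 10 letters, stood in 0 of the 33, beside 0.370% of all genes. The core CACGTG, contained in all of these, stood in the same 11 genes (33.3%), beside 8.09% of all genes and 11.9% of the tested ones. The sites are printed with 10 flanking bases on each side on the gene's strand, with the match in capitals.
Gla, chrX:134601216-134601243 (minus strand): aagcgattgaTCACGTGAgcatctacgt
Gla, chrX:134601183-134601210 (minus strand): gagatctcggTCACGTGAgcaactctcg
Naglu, chr11:101070010-101070036 (plus strand): aaccttcaggTCACGTGgcccgaggtc
Nagpa, chr16:5204007-5204033 (minus strand): tggcctggaaTCACGTGgggcgagccc
Nagpa, chr16:5203991-5204017 (minus strand): ggggcgagccCACGTGAccggagcacc
Lgmn, chr12:102439126-102439152 (minus strand): ggaatgtctgTCACGTGgtccatttta
Ifi30, chr8:70766843-70766870 (minus strand): tccaaaaactTCACGTGAccagacatgc
Ctsa, chr2:164833750-164833777 (plus strand): gagcaaactgTCACGTGAtgcagatgct
Ctsa, chr2:164833767-164833794 (plus strand): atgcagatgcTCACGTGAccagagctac
Mcoln1, chr8:3500437-3500463 (plus strand): gtcgcgcttgTCACGTGttcagttcag
Mcoln1, chr8:3500463-3500490 (plus strand): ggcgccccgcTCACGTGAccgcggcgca
Atp6v1a, chr16:44139374-44139401 (minus strand): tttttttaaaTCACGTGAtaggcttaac
Atp6v0b, chr4:117887350-117887376 (minus strand): tgcgcgggggTCACGTGgggtcggcgc
Atp6v0b, chr4:117887332-117887358 (minus strand): ggtcggcgcaTCACGTGcgccggtcag
Atp6v0d1, chr8:105566051-105566078 (minus strand): cctactgcggTCACGTGAgacgcggtgc
A match describes the letters of the window and is not evidence of binding.

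**Figure D5:**
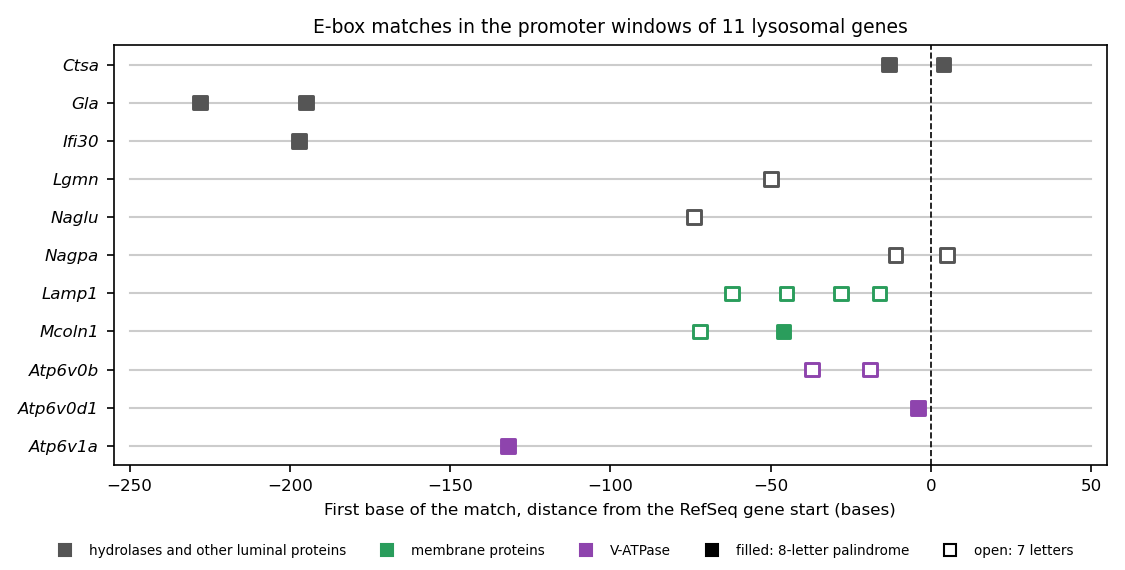
Position of each match to the 7-letter E-box in the promoter windows of the 11 genes that hold one, as the distance in bases of its first base from the RefSeq gene start. Filled squares are the 8-letter palindrome and open squares the 7 letters alone, and Lamp1 holds the most, 4, all within 62 bases before the start.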

How the data were processed

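The authors deposited one table of raw read counts, whole numbers per gene symbol, made from 8 libraries. Per the labels' protocols, cDNA was made by a low-input full-length method and libraries with KAPA Hyper Prep kits. Per the submitters' processing notes, Trimmomatic 0.39, STAR 2.7.5c, Cufflinks 2.2.1 and the mm10 build were used. Not given in the sources used here are the counter, its annotation and whether strand was used. Columns were assigned to samples through their names, with 0 left over.

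The tests used edgeR 4.0.16 in R 4.3.3: genes passing filterByExpr (11394 of 24369), TMM scaling, robust quasi-likelihood fits and Benjamini-Hochberg adjustment over all genes tested, at 0.05. Subset and EGFP effects over both levels of the other factor came from an additive model, and within-group contrasts and the interaction from a model with 1 mean per group, in 7 comparisons. Rn45s (19.4 to 35.6% of counts) stayed in the library totals except in an alternative. DESeq2 1.42.0, other scalings and filters, left-out libraries and a replicate block were alternatives. The subset comparisons over both fractions and within the EGFP-negative fraction were also run on simulated counts, with an outcome not given here. All groups there had the same spread, unlike the EGFP-positive cDC1 libraries here, and the other comparisons were not simulated.

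Depth was 17869441 to 22195681 counts, so 3 counts are 0.135 to 0.168 CPM. No molecular identifiers separate PCR copies, so floors and intervals cover counting error only. A fold against a group at 0 uses 3 counts over the group. Symbols were matched to GENCODE M21 (23204 of 24369, 95.2%), from which merged exon lengths were taken, and promoters to RefSeq (GRCm38.p6).

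The 40 genes and all lists were chosen with earlier results of these data known. Genes with a value in every library are those past the threshold in any comparison, in each block the 3 of highest mean CPM, the 3 of smallest p between subsets and the 2 of smallest p by EGFP, and Tfeb, Mcoln1, Atp6v0d1 and Atp6v0d2.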

Additional observations from a re-analysis of the deposited data

Results flagged for a closer look

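For 4 of the 39 tested genes the EGFP-positive libraries lay wholly on one side of the EGFP-negative ones in cDC1 and wholly on the other side in cDC2. The difference of these differences was tested and passed for none of them (edgeR's quasi-likelihood test, Benjamini-Hochberg adjustment). These 4 are 10.3% of the 39 genes, beside 8.88% of all genes tested, so the share is near the background.

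Lamp1 was higher in EGFP-positive cDC1 and lower in EGFP-positive cDC2, with a difference of log2 fold changes of 1.81 (adjusted p = 0.370, edgeR). Ctsa, the protective protein cathepsin A, had 122 and 523 CPM in EGFP-positive cDC1 and 427 and 225 CPM in EGFP-positive cDC2, against 78.3 and 112 CPM in EGFP-negative cDC1 and 659 and 592 CPM in EGFP-negative cDC2, with a difference of 2.7 (adjusted p = 0.428, edgeR). Of its merged exons, 819 of 4715 bases overlap Neurl2 and Pltp on the opposite strand, and with the use of strand not given their reads cannot be told apart. Pltp had 1.12 ± 2.18 CPM in cDC1 and 90.6 ± 25.4 CPM in cDC2 (SD, n = 4 each). Naglu, an enzyme of heparan sulfate breakdown, had the same directions and a difference of 2.41 (adjusted p = 0.504, edgeR). Atp6v1c1, a subunit of the V1 sector, was lower in EGFP-positive cDC1 and higher in EGFP-positive cDC2, with a difference of −1.97 (adjusted p = 0.492, edgeR). All 4 rest on the EGFP-positive cDC1 libraries, whose replicates differed most across genes.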

How the results depend on the processing

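Between subsets over both fractions, the count of called lysosomal genes was 3. It was 18 with DESeq2, 7 with no low-count filter and 11 without both EGFP-positive cDC1 libraries, beside 10.2, 1.70 and 3.55% of all genes. With 1 library left out it was 0 to 9, beside 0.403 to 2.22% of all genes. RLE scaling and removal of Rn45s each gave 3, and a filter of at least 10 CPM in 2 libraries gave 2, beside 1.39, 1.31 and 2.23% of all genes. Within the EGFP-negative fraction, where 1 gene was called, DESeq2 gave 12 and no low-count filter 4, beside 7.35 and 0.807% of all genes. A fit without both EGFP-positive cDC1 libraries gave 11 and a fit on only the 4 libraries compared 8, beside 3.55 and 2.89%. That count also changed when 1 library was left out. Within the EGFP-positive fraction, where 1 gene was called, DESeq2 gave 8 (20.5% of the 39), beside 13.9% of all genes. No low-count filter gave 2 there, beside 153 of 13876 genes, and only the 4 libraries compared gave 0, beside 0% of all genes. The count in this fraction, too, changed when 1 library was left out. Between EGFP fractions over both subsets the count was 0, and DESeq2 gave 2, beside 1.61% of all genes. Within cDC1 it was 0, with 5 from DESeq2 and 2 with no low-count filter, beside 11.6 and 0.411% of all genes. For the interaction it was 0, with 3 from DESeq2 and 1 with no low-count filter, beside 6.27 and 0.209% of all genes. Leaving out EGFP-positive cDC1 replicate 1 or replicate 2 gave 11 and 11 calls within the EGFP-negative fraction, 3 and 13 within the EGFP-positive fraction, 6 and 6 within cDC1 and 4 and 4 for the interaction, beside 3.75 and 3.31, 6.83 and 10.2, 6.15 and 8.41, and 4.15 and 5.35% of all genes; a lone library was then assumed to vary like the other groups. The genes with no overlap by EGFP numbered 2, beside 2.97% of all genes. With 1 library left out they numbered 2 to 4, beside 4.27 to 7.06% of all genes. Without both EGFP-positive cDC1 libraries they numbered 10, beside 22.2% of all genes. That setting compares EGFP-positive cDC2 libraries alone with EGFP-negative libraries of both subsets. The V-ATPase median of −0.89 ran from −1.15 to −0.69 with 1 library left out. The cause of these changes was not tested, beyond the fewer libraries themselves. The sign of Atp6v1h, near 0 at −0.05, turned to 0.0035 with the 10 CPM filter and 0.23 without both EGFP-positive cDC1 libraries, and ran from −0.20 to 0.11 with 1 library left out, positive without EGFP-positive cDC1 replicate 2 (0.10) and without EGFP-positive cDC2 replicate 1 (0.11).

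The titles share a code across the groups within each replicate number, but its meaning is not given. The correlations of replicate differences between groups ran from −0.224 to 0.0408, which does not settle whether the replicate numbers pair the samples. With the numbers as a replicate block, 2 genes were called between subsets (Naaa and Ppt1, while Lamp1 had an adjusted p of 0.0835 in edgeR). None was called within the EGFP-negative or the EGFP-positive fraction. The shares of all genes were 0.720, 0.0263 and 0% in the same order. For EGFP-positive cDC1 and cDC2, whose correlation was −0.224, a block on these 4 libraries gave 0 calls with the numbers as labelled and 0 with crossed numbers, both chosen after seeing the data.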
